A study of Mus musculus with 6 samples.

Results

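BCL2 family genes encode the proteins that decide whether the outer mitochondrial membrane is opened during apoptosis. Their mRNA levels were described here in Ba/F3, a lymphoid cell line from the mouse that needs interleukin-3 (IL-3) to survive. The members were the 10 rows of the gene table, out of 41255, whose symbols were Bcl2, Bcl2l1, Mcl1, Bax, Bak1, Bcl2l11, Bad, Bid, Bbc3 and Pmaip1, a list taken by name and not by any measured value. All 6 cultures carried a retroviral human RPL10 cDNA and a short hairpin RNA against endogenous mouse Rpl10, and all were exposed to cycloheximide, an inhibitor of translation elongation, at 100 µg/ml for 5 min before harvest. In the WT group (clones 28, 29 and 36) the cDNA was wild type. In the R98S group (clones 11, 13 and 35) it coded for serine in place of arginine at residue 98 of the ribosomal protein, a change known from T-cell acute lymphoblastic leukemia. Each culture had grown from 1 cell and gave 1 polyA mRNA library, so that differences between genotypes were read against differences between single clones of an engineered line. The comparison asked whether the pro-survival and the pro-death side of the family differed between the genotypes.

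Pro-survival members (Bcl2, Bcl2l1 coding for BCL-XL, and Mcl1) bind and hold the effectors Bax and Bak1, which otherwise assemble into pores and let cytochrome c out of the mitochondria. BH3-only members (Bcl2l11 coding for BIM, Bad, Bid, Bbc3 coding for PUMA, and Pmaip1 coding for NOXA) carry death signals by occupying the groove of the pro-survival proteins or by activating the effectors. In IL-3 dependent cells the cytokine holds this balance on the side of survival through JAK2 and STAT5, and its withdrawal leads to apoptosis.

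All of these proteins share a short helix, BH3, through which they bind each other. Its core can be read in the coding sequence as a leucine codon followed, 5 codons later, by an aspartate codon that stands next to a codon for a small residue. The following 27-base stretches are shown because members on both sides of the family hold this core. Capitals mark the leucine codon and the pair of codons for the small residue and the aspartate. They were taken from GENCODE M21 transcripts and placed on GRCm38.
Bcl2 (chr1:106712578-106712604, minus strand): accCTCcgccgggctGGGGATgacttc
Bcl2l1 (chr2:152829700-152829726, minus strand): gcgCTGagagaggcaGGCGATgagttt
Mcl1 (chr3:95659433-95659459, plus strand): accCTGcggcgcgtgGGCGACggcgtg
Bax (chr7:45466000-45466026, minus strand): tgtCTCcggcgaattGGAGATgaactg
Bak1 (chr17:27022534-27022560, minus strand): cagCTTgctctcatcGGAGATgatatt
Bcl2l11 (chr2:128147147-128147173, plus strand): gagCTGcggcggatcGGAGACgagttc
Bad (chr19:6950789-6950815, plus strand): gagCTCcgaaggatgAGCGATgagttt
Bid (chr6:120897292-120897318, minus strand): catCTCgcccaaataGGCGATgagatg
Bbc3 (chr7:16313770-16313796, plus strand): cagCTGcggcggatgGCGGACgacctc
The small residue was glycine in every stretch shown except those of Bad (serine) and Bbc3 (alanine). All 10 members held such a core, against 34.0% of the 21493 mouse coding sequences searched in the same way, so the pattern alone does not define the family.

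Values are normalized read counts, that is reads per gene divided by a size factor for the library. The libraries held between 21786776 and 24204991 reads, and the first principal component (61.2% of the variance) separated the genotypes while the second (13.0%) set WT clone 36 and R98S clone 13 apart. Of 11550 genes tested with limma on log2(normalized count + 1), 2755 passed an adjusted p of 0.1, the threshold used throughout. Nothing in the labels ties clones to batches. Among markers of the labelled cell, the common IL-3 receptor chain gene Csf2rb was at 46530 to 83429 normalized counts in all 6 libraries. Of the other 3 genes of that list, Csf2rb2 was higher in R98S cells like Csf2rb, Il3ra was not called, and Ptprc, the common leukocyte antigen gene, was lower (log2 fold change -1.33, limma adjusted p = 0.0089). Of 8 genes of B cell precursors, 5 were at or under 3 reads in every library (Pax5, Vpreb1, Igll1 and Rag1 among them), whereas Cd79a was at 996 to 1507. Cd79b was higher in R98S cells (log2 fold change 1.22, limma adjusted p = 0.0617), although its values overlapped between the genotypes. Summed markers of T cells (5 genes) were at 14.0 to 65.0 normalized counts in WT and 46.9 to 92.9 in R98S libraries, with Cd3d higher (log2 fold change 2.17). Those of macrophages (3 genes) were at 165 to 268 and 88.2 to 251, with Lyz2 lower (-3.34), and those of erythroid cells (3 genes) at 11.8 to 73.1 and 2.78 to 12.2, with Hba-a1 lower (-3.52). Markers of mast cells and basophils (5 genes, none called) summed to 172 to 249 in WT and 71.4 to 530 in R98S libraries. In the lists of T cells, of mast cells and basophils and of erythroid cells, 2 genes each were at 3 reads or fewer in every library. Cd4, Kit, Fcer1a and Hbb-bs were among them, while other genes of the same lists were expressed and tested. As each culture had grown from 1 cell, these values describe markers expressed within clones and are no count of other cell types. Their bearing on the results was not tested.

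Of the 10 members 9 were expressed well above the limit of detection, and 4 of these 9 passed the test. Bax was higher in R98S cells, and Bcl2l1, Bid and Bbc3 were lower. Over all tested genes 23.9% were called, 10.7% as higher and 13.1% as lower. The values of the genotypes did not overlap for the same 4 of 9 members, where this held for 37.3% of all tested genes. The median log2 fold change (R98S against WT) of the 9 members was -0.37, and that of all tested genes was -0.01. In such bulk libraries fewer cells that express a gene and less of its mRNA per cell cannot be told apart.

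**Figure D1:**
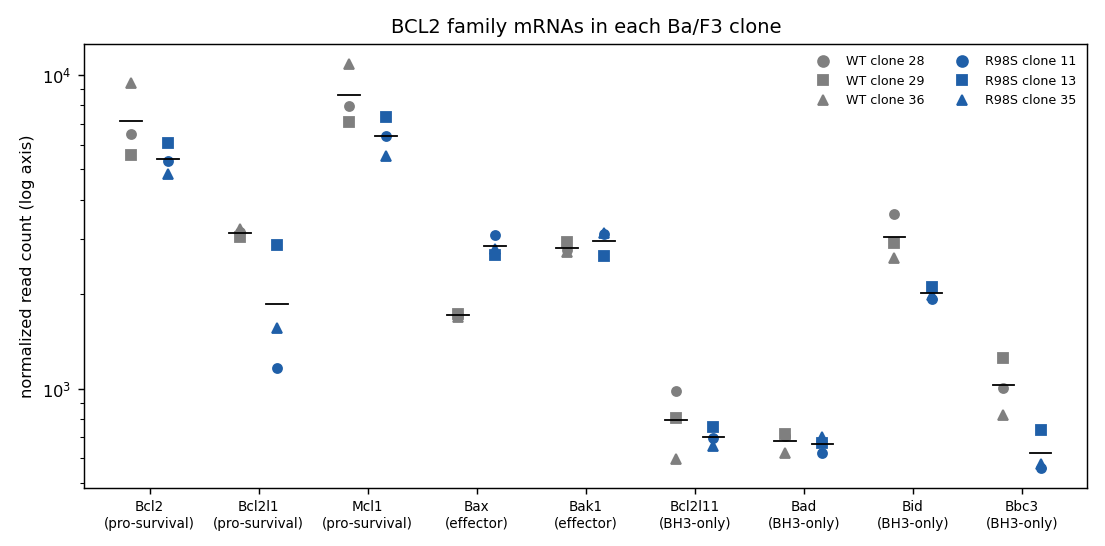
Normalized read counts (log axis) of the 9 detected BCL2 family members in each of 3 WT (grey) and 3 R98S (blue) clones, with the group mean as a bar and 1 symbol per clone. The points of Bax, Bcl2l1, Bid and Bbc3 do not overlap between the genotypes, and R98S clone 13 (blue squares) lies nearest to the WT clones.

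Of the pro-survival members, Bcl2l1 was the one that passed the test (chromosome 2, 152780668 to 152831728, minus strand, GRCm38). It stood at 3153, 3046 and 3220 normalized counts across the WT clones (28, 29 and 36, in this order throughout), against 1168, 2871 and 1560 across the R98S clones (11, 13 and 35). The WT clones were almost equal, while R98S clone 13 stayed close to them and clones 11 and 35 lay far below. The log2 fold change was -0.85 (SE 0.28, limma adjusted p = 0.0783, n = 3 and 3), and the R98S mean was 0.594 times the WT mean. This call was lost when any WT clone or R98S clone 11 or 35 was left out (largest limma adjusted p = 0.1996, log2 fold change -0.57, without clone 11), in the limma fit without an intensity trend (adjusted p = 0.134) and in edgeR's quasi-likelihood test (log2 fold change -0.74, adjusted p = 0.125). Without R98S clone 13 the log2 fold change was -1.22 with a limma adjusted p of 0.0049.

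Bcl2 itself, the founding member of the family (chromosome 1, 106538178 to 106714274, minus strand), was at 6473, 5552 and 9425 in the WT clones, against 5334, 6074 and 4835 in the R98S clones. WT clone 36 was the highest library and the other values of the genotypes overlapped. Its log2 fold change of -0.37 (95% confidence interval -0.81 to 0.07, limma adjusted p = 0.227) did not pass the test. Mcl1, which codes for a short-lived pro-survival protein (chromosome 3, 95658788 to 95663176, plus strand), gave 7938, 7089 and 10823 in WT and 6379, 7323 and 5533 in R98S clones. Again WT clone 36 was highest, and R98S clone 13 exceeded WT clone 29. The log2 fold change of Mcl1 was -0.41 (95% confidence interval -0.81 to -0.01, limma adjusted p = 0.149), and it passed the threshold only when WT clone 36 and R98S clone 13 were both left out (-0.34, adjusted p = 0.0955). Bcl2 and Mcl1 followed each other closely over the 6 libraries, with a Pearson's r of 0.984. By this measure Mcl1 was the second nearest to Bcl2 among 9503 genes, after Sema4c with an r of 0.985 and ahead of Dcp1b with 0.982. The libraries fall into 2 genotypes, so that such values describe a shared pattern and carry no test.

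The effector Bax had the smallest adjusted p of the members (chromosome 7, 45461697 to 45466898, minus strand). It was at 1714, 1733 and 1689 normalized counts across the WT clones, against 3083, 2662 and 2784 across the R98S clones. All R98S clones lay above all WT clones by a distance larger than the spread within either group. Bax rose by 0.73 on the log2 scale (SE 0.10, limma adjusted p = 0.0046), with an R98S mean 1.66 times the WT mean, and was called under each of the 18 alternative settings tried (log2 fold change 0.67 to 0.80). Its exons share 192 bases with Gm45808, a gene annotated on the same strand that the table does not list.

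Bak1, the second effector (chromosome 17, 27019810 to 27029009, minus strand), showed no such difference. It was at 2766, 2941 and 2719 in WT and at 3120, 2647 and 3134 in R98S clones, with overlapping groups. The log2 fold change of Bak1 was 0.08 (95% confidence interval -0.17 to 0.32, limma adjusted p = 0.667).

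Of the BH3-only genes Bid and Bbc3 were lower in R98S cells. Bid (chromosome 6, 120891930 to 120916853, minus strand) codes for a protein that caspase-8 cleaves, linking death receptors to mitochondria. Its normalized counts were 3609, 2913 and 2601 for WT, against 1936, 2113 and 1988 for R98S clones. The R98S clones lay close together and below every WT clone. Bid fell by 0.58 on the log2 scale (SE 0.13, limma adjusted p = 0.0262), with an R98S mean 0.662 times the WT mean. The call was lost when the regional shift, the median over the 30 closest tested neighbours on the chromosome, was removed from each library (log2 fold change -0.25, limma adjusted p = 0.199). Bid shares 628 exon bases with its neighbour Bcl2l13, a mitochondrial BCL2-related gene on the opposite strand, which was also lower (-0.36, limma adjusted p = 0.0643), and reads there can be told apart only if strand was used in counting.

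Bbc3, a target of p53 and FOXO factors (chromosome 7, 16308393 to 16318205, plus strand), was at 1003, 1250 and 823 in WT and at 561, 738 and 577 in R98S clones. R98S clone 13 came nearest to the lowest WT clone without reaching it. Bbc3 fell by 0.70 on the log2 scale (SE 0.18, limma adjusted p = 0.0393), with an R98S mean 0.610 times the WT mean. The limma adjusted p passed 0.1 with the regional shift removed (0.102) and without WT clone 28 (0.114), WT clone 29 (0.125), R98S clone 11 (0.123) or R98S clone 35 (0.108), while its log2 fold changes under the 18 alternatives ran from -0.97 to -0.53.

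The remaining BH3-only members gave no call. Bcl2l11, whose product BIM is held down by IL-3 signalling (chromosome 2, 128126038 to 128162547, plus strand), was at 986, 805 and 598 in WT and at 699, 756 and 657 in R98S clones. The R98S clones lay inside the range of the WT clones, and the log2 fold change was -0.15 (95% confidence interval -0.58 to 0.28, limma adjusted p = 0.616). Bad, whose product is kept inactive by phosphorylation and 14-3-3 proteins (chromosome 19, 6941861 to 6951899, plus strand), was at 709, 716 and 626 in WT and at 623, 673 and 701 in R98S clones. With a log2 fold change of -0.04 (95% confidence interval -0.32 to 0.25, limma adjusted p = 0.861) Bad differed by less than the spread between clones, and its exons share 524 bases with Gpr137 on the opposite strand. Pmaip1 had between 0 and 2 reads in every library, at or below the 3 reads taken as the limit of detection (2.78 to 3.22 normalized counts), and was not tested.

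**Figure D2:**
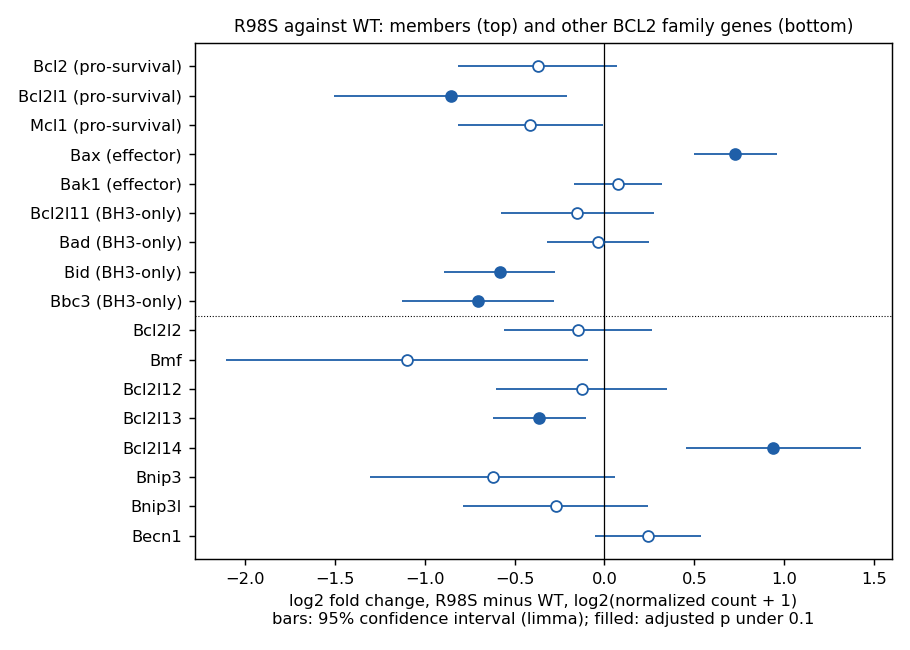
Log2 fold changes (R98S minus WT, log2(normalized count + 1) scale) of the 9 tested members and of 8 other BCL2 family genes, with 95% confidence intervals from limma. Filled points passed an adjusted p of 0.1, which were Bcl2l1, Bax, Bid and Bbc3 among the members and Bcl2l13 and Bcl2l14 among the others.

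R98S clone 13 was closer to the WT clones than the other R98S clones were in all 9 tested members. Over all tested genes clone 13 was the nearest R98S clone for 38.7%, and over all called genes for 45.3%. As members share the 6 libraries and move together, these 9 are not independent of each other. WT clone 36 was the highest library for 3 of the 9 members and for 17.2% of all tested genes.

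Read against each other, the pro-survival side had 1 of 3 tested members lower and none higher, and the pro-death side 2 of 6 lower and 1 higher. Of all tested genes 13.1% were called lower and 10.7% higher, and with so few members nothing is read from these shares. The median log2 fold change was -0.41 for pro-survival and -0.09 for pro-death members. The difference between these medians was -0.32, and it was -0.02 without WT clone 36 and -0.48 without WT clone 29. Within each clone, the median log2 level of pro-survival members minus that of pro-death members was also taken. This other quantity had an SD of 0.40 between clones of the same genotype.

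Levels of different genes were compared as normalized reads per kb of annotated exon. Mcl1 was the most abundant member in WT cells with 2521 ± 573 (SD, n = 3), followed by Bak1 with 1167 ± 49 and Bax with 1086 ± 14. Bid, Bcl2 and Bcl2l1 came next, and neighbours among these 3 overlapped in their ranges over WT clones. Bbc3 with 483 ± 101, Bad with 267 ± 19 and Bcl2l11 with 99.2 ± 24 reads per kb closed the order without overlap. In R98S cells Bax, with 1804 ± 138, moved to the second place, and its range overlapped that of Mcl1 (1876 ± 262). Bcl2l1 dropped from 685 ± 19 to 407 ± 194 reads per kb, a range so wide over the R98S clones that it overlapped both Bid above and Bbc3 below. Bcl2l11 was the lowest of the 9 tested members in both genotypes. The order depends on the length used: over the longest annotated transcript Bax exceeded Bak1 in WT cells (1557 against 1177 reads per kb), and in R98S cells Bax was above Mcl1 (2584 against 1876).

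**Figure D3:**
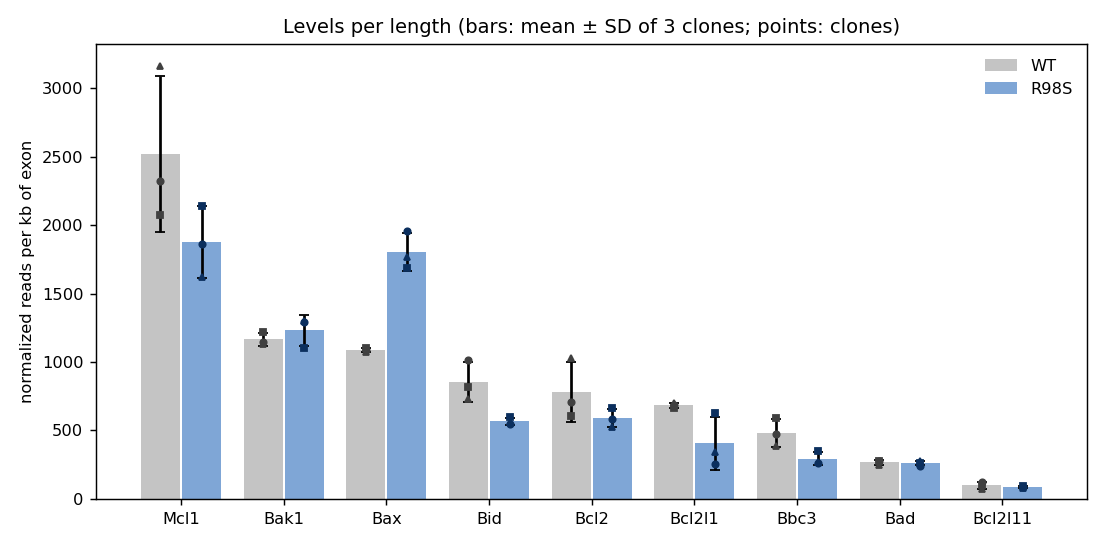
Normalized reads per kb of annotated exon for 9 BCL2 family members in WT (grey) and R98S (blue) cells, as mean ± SD of 3 clones with the clones as points. Mcl1 is the highest bar in both genotypes, and Bax rises from 1086 to 1804 reads per kb.

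Summed per kb, the effectors Bax and Bak1 gave 2237, 2322 and 2202 across the WT clones, against 3252, 2789 and 3068 across the R98S clones. These sums did not overlap, and their means were 2253 ± 61.9 and 3036 ± 233 (SD, n = 3). The BH3-only genes summed to 1888, 1790 and 1440 in WT and to 1140, 1300 and 1188 in R98S clones, again without overlap but in the opposite direction. Of the effector and BH3-only genes, the called genes Bax, Bid and Bbc3 were the ones without overlap, whereas Bak1, Bcl2l11 and Bad overlapped. No background share was computed for sums, and among single genes 37.3% did not overlap. The pro-survival genes summed to 3717, 3345 and 4898 in WT and to 2703, 3432 and 2487 in R98S clones, where R98S clone 13 exceeded WT clone 29. Pro-survival over pro-death reads per kb came to 0.901, 0.813 and 1.35 in the WT clones, against 0.616, 0.839 and 0.584 in the R98S clones. The ratio thus overlapped through the same clones. Sums and ratio used the length of all annotated exons, and their levels were not computed over the longest transcript.

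The mRNAs of partners whose proteins are known to bind each other were also set against each other within each clone. Protein was not measured in these libraries. The authors report that R98S cells survive better through raised translation of BCL2 from an internal ribosomal entry site, which mRNA ratios cannot show. The 7 pairs chosen held none with Bid or Bbc3, the pro-death members called lower. The log2 ratio of the pro-survival to the pro-death gene was lower on average in R98S cells in all 7. Each difference restates the fold changes of its 2 genes, and pairs share genes, so the 7 are not independent of each other. In 2 pairs, both with Bax, the genotypes did not overlap. No background share was computed for ratios, and among single genes 37.3% did not overlap. The log2 ratio of Bcl2 to Bax was 1.92, 1.68 and 2.48 in WT and 0.79, 1.19 and 0.80 in R98S clones, a difference of -1.10 (0.467 times). That of Bcl2l1 to Bax was 0.88, 0.81 and 0.93 in WT and -1.40, 0.11 and -0.84 in R98S clones, a difference of -1.58 (0.334 times). For both pairs the exact two-sided permutation p was 0.1, the smallest that 3 clones against 3 can give, and 0.28 after Benjamini-Hochberg adjustment over the 7 pairs. These ratios are not per length, but the lengths cancel in the difference between genotypes.

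Pairs without Bax overlapped between the genotypes. The difference was -0.93 for Bcl2l1 to Bak1, -0.82 for Bcl2l1 to Bad and -0.49 for Mcl1 to Bak1, each with an exact two-sided permutation p of 0.2. With BIM as partner the differences were -0.26 for Mcl1 to Bcl2l11 (exact permutation p = 0.9) and -0.22 for Bcl2 to Bcl2l11 (exact permutation p = 1). Both turned positive without WT clone 36, at 0.11 for Mcl1 and 0.19 for Bcl2. Mcl1 was not set against Pmaip1, which was at the limit of detection.

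The sign of the difference in the mean ratio varied among pairs. Over all 18 combinations of the 3 pro-survival with the 6 tested pro-death genes, a set added after seeing the data, the mean log2 ratio was lower in R98S cells in 14 and higher in 4. The 4 higher ratios were those of Bcl2 and Mcl1 to Bbc3 (0.33 and 0.29) and to Bid (0.21 and 0.17), and the ratios of Bcl2l1 to these genes were lower (-0.15 for Bbc3 and -0.27 for Bid). All 6 ratios with Bid or Bbc3 overlapped between the genotypes, and the 4 higher ones had an exact permutation p of 0.5 to 0.6. The 18 combinations share genes and are not independent of each other. The 3 ratios that did not overlap were those of Bcl2, Bcl2l1 and Mcl1 to Bax. The smallest exact permutation p was 0.1, or 0.514 after Benjamini-Hochberg adjustment over the 18 combinations.

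**Figure D4:**
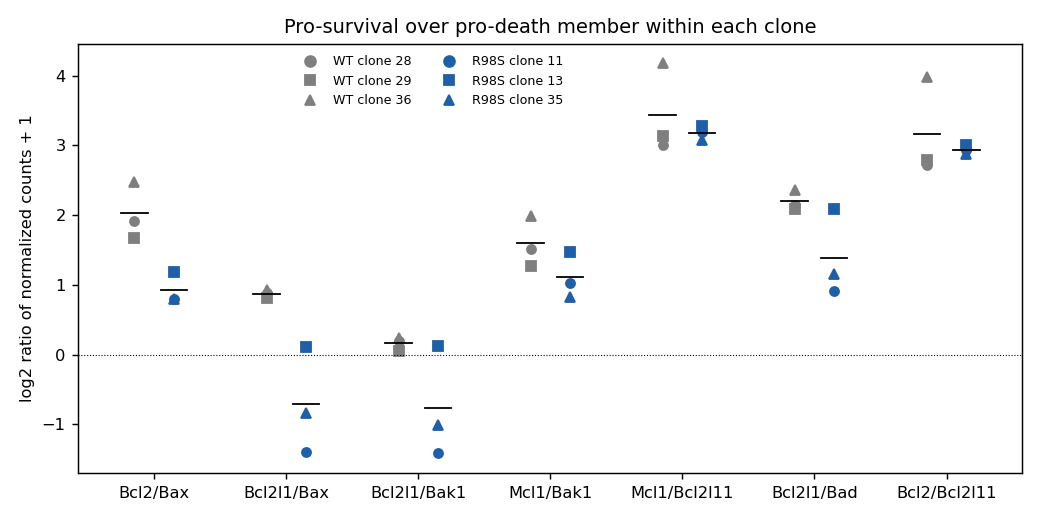
Log2 mRNA ratio of a pro-survival to a pro-death member within each clone for 7 pairs whose proteins bind. WT clones are in grey, R98S clones in blue, and group means are bars. The ratios of Bcl2 to Bax and of Bcl2l1 to Bax do not overlap between the genotypes, and the other 5 pairs do.

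The promoters of 9 members were searched, on both strands and from 250 bases before to 50 bases after the start in 15 RefSeq windows (GRCm38.p6), for motifs of factors that act on this family. The STAT motif TTCNNNGAA was found in none of them and in 8.3% of all 32851 windows. The FOXO motif GTAAACA stood in windows of Bcl2l11 and Bbc3 (3.65% of all windows), the E-box CACGTG in windows of Bbc3 and Bax (7.15%), and a p53 half-site in the window of Bax (8.36%). The matches are shown because 2 of these 3 genes, Bax and Bbc3, passed the test in opposite directions, with the motif in capitals, 5′ to 3′ on the strand of the gene.
Bcl2l11 FOXO (chr2:128125803-128125825, plus strand, 227 bases before the start): acactaggGTAAACAcgccgggg
Bbc3 FOXO (chr7:16310086-16310108, plus strand, reverse complement of the motif, 167 bases before the start): ggcgggttTGTTTACaaacaatg
Bbc3 E-box (chr7:16310359-16310380, plus strand, 64 bases before the start of another window): ggcgggcgCACGTGgcggcgtc
Bax E-box (chr7:45466894-45466915, minus strand, 9 bases before the start): atgatgatCACGTGactagtcc
Bax E-box (chr7:45466850-45466871, minus strand, 36 bases after the start): ggggcaccCACGTGagggccgc
Bax p53 half-site (chr7:45467082-45467107, minus strand, 201 bases before the start): catatcccAGGCAAGCTTtgaacttg
These are matches of letters and no measure of binding. Of the factors concerned, Trp53 was higher in R98S cells, with 2627, 2790 and 2835 normalized counts in WT and 3751, 4243 and 3775 in R98S clones (log2 fold change 0.51, limma adjusted p = 0.0156). Foxo3 (0.07, limma adjusted p = 0.701), Foxo4 (-0.22, 0.308), Myc (-0.18, 0.405), Stat5a (0.29, 0.182) and Stat5b (-0.19, 0.408) gave no call. Mdm2, of the upstream regulators listed below, was not called either (0.11, limma adjusted p = 0.745). Whether the difference in Trp53 bears on Bax was not tested.

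Of 17 other BCL2 family genes 8 were tested and 2 passed, a share of 25% against 23.9% of all tested genes. Bcl2l14 rose from 109.6, 92.4 and 94.1 normalized counts in WT to 187, 234 and 156 in R98S clones (log2 fold change 0.94, limma adjusted p = 0.0246), without overlap. Bcl2l13 was at 2620, 2942 and 2345 in WT and at 2055, 2022 and 2050 in R98S clones. The pro-survival gene Bcl2l2 was not called (-0.15, limma adjusted p = 0.614), nor were Bcl2l12, Bnip3, Bnip3l and the autophagy gene Becn1. The BH3-only gene Bmf was at 85.0, 65.6 and 72.1 in WT and at 22.5, 71.4 and 24.1 in R98S clones, so that clone 13 again stayed with the WT clones (-1.10, limma adjusted p = 0.129). Bcl2a1a, Bcl2a1b, Bcl2a1c, Bcl2a1d, Bcl2l10, Bok, Bik and Hrk had at most 3 reads in any library, and Bcl2l15 was below the expression filter.

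Around the family, 81 further genes including these 17 were listed, of which 67 were tested and 21 called (31.3%, against 23.9% of all tested genes), 6 higher and 15 lower (10.7% and 13.1% of all tested genes), with a median log2 fold change of -0.15. Among the caspase genes Casp2 was lower (-0.47, limma adjusted p = 0.0253). Apaf1 and Casp9, which form the apoptosome with cytochrome c, were not called, and Cycs, which codes for it, gave a log2 fold change of 0.52 with overlapping groups (limma adjusted p = 0.107). Of 8 tested genes for inhibitors of apoptosis, their antagonists and other mitochondrial death factors 2 passed, a share of 25% against 23.9% of all tested genes. These were the inhibitors Xiap (-0.36) and Birc3 (-0.56), both lower, and the other 6 were not called.

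Of 8 tested genes of death receptor signalling 4 passed, where 23.9% of all tested genes did. The receptors Fas (-0.77) and Tnfrsf1a (-0.64) and the caspase-8 inhibitor gene Cflar (-0.49) were lower, and the adaptor gene Fadd was higher (0.69, limma adjusted p = 0.0893). Casp8, which acts on BID, was not called (0.07, limma adjusted p = 0.753). Of 14 genes whose products bind, modify or degrade members 3 passed, a share of 21.4% against 23.9% of all tested genes. These were Vdac1 (-0.52), Prkaca (-0.53) and the 14-3-3 gene Ywhaz (-0.34), all lower.

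Of 21 tested upstream regulators 7 passed (33.3%, against 23.9% of all tested genes). The IL-3 receptor genes Csf2rb (0.53) and Csf2rb2 (0.62) were higher together with Trp53. The survival kinase genes Pim3 (-2.44, limma adjusted p = 0.0109) and Pim2 (-1.22, limma adjusted p = 0.0954) were lower, while Pim1, which stood at 12121 to 21586 normalized counts, was not called (-0.07, limma adjusted p = 0.846). Also lower were the stress-response genes Trib3 (-1.35) and Ddit3 (-1.14), which codes for CHOP. For Trib3 the genotypes overlapped, as R98S clone 13 (981) lay above WT clone 36 (828). Pim2 was at 1147, 935 and 2050 in WT and at 357, 1101 and 440 in R98S clones, where clone 13 lay within the WT range as it had for Mcl1 and Bmf.

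**Figure D5:**
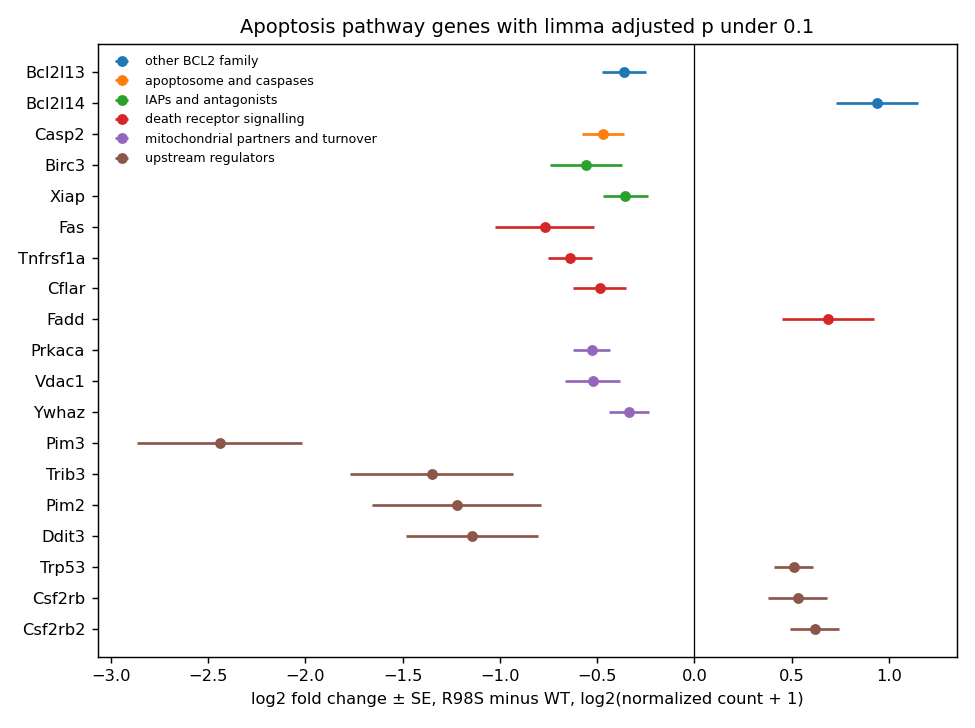
Log2 fold changes ± SE (R98S minus WT, log2(normalized count + 1) scale) of 19 apoptosis pathway genes with a limma adjusted p under 0.1, coloured by list, out of 21 such genes, of which 2 are not shown. The 14 genes shown as lower in R98S cells lie left of 0, with Pim3 at -2.44 farthest out, and the 5 higher genes reach 0.94 for Bcl2l14.

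By the pattern over the 6 libraries, the genes most like Bax were Dctpp1, Ptdss2 and Uqcrh (Pearson's r 0.998 for the first of them), and those most like Bcl2l1 were Serpinb6a, Sugp1 and Tbc1d7 (r at least 0.99). Itpa, Ifrd1 and Nhsl2 were nearest to Bid, and Tom1, Ehd1 and Smim14 to Bbc3. None of these is a BCL2 family gene, and these values, found among 9503 genes over only 6 libraries, carry no test.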

How the data were processed

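The deposited table gives 1 value per gene symbol for each of 6 polyA mRNA libraries (stranded TruSeq kit). Per the submitters' processing notes and methods, the authors removed ribosomal and transfer RNA reads with Bowtie2, aligned the rest with TopHat to mm 10 (GRCm38), kept primary alignments of sufficient mapping quality, counted reads per gene with HTSeq and divided them by DESeq2 size factors. The gene annotation and the strand setting of counting are not given in the sources used here, and genes with near-identical copies lose reads to the mapping filter. The deposited unit is therefore a signal, a normalized count. In each library 100% of values were whole multiples of a step of 0.92516 to 1.0746 (tolerance 0.01), from which reads were recovered. For WT clone 36 the step was near 1, so that rounding could mimic it.

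Groups came from the labels. Genes averaging at least 10 normalized counts over the libraries were tested with limma 3.58.1 (R 4.3.3) on log2(value + 1) with an intensity trend, two-sided, Benjamini-Hochberg adjusted over all 11550 tested genes, threshold 0.1. Fold changes on this scale understate those of low genes. P-values measure the spread between single-cell clones. A count of 3 reads was the limit of detection. Pair ratios used exact permutation tests over 20 labellings. Depth was similar in all libraries, so that counting error is small for members other than Pmaip1. Alternatives were pseudocounts of 0.5 and 5, no filter or a minimum of 50, scaling to equal totals or upper quartiles, no trend, a threshold of 0.05, edgeR 4.0.16 and DESeq2 1.42.0 on recovered reads, subtraction of a regional shift (the median over the 30 closest tested neighbours), and leaving out each clone. The joint removal of WT clone 36 and R98S clone 13 and the set of 18 ratios were added after seeing the data. The fit was tested on simulated data. Symbols were matched to GENCODE M21 for 36776 of 41255 genes. The members are named whatever their values, as are the other BCL2 family genes. Pathway genes are named where called, and the 3 genes most like Bcl2 or a called member by Pearson's r among genes with a mean of at least 100. Pathway genes named without a call (such as Apaf1, Casp8, Casp9, Cycs, Foxo3, Myc, Pim1, Stat5a, Stat5b, Huwe1, Ppp3ca, Rps6kb1 and Endog) were chosen after their values were seen. Some listed genes count toward the totals but are not reported here by name. Members and lists were chosen with earlier results of these data known.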

Additional observations from a re-analysis of the deposited data

How the results depend on the processing

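Over 162 comparisons of a member with an alternative setting, 143 kept direction and side of the threshold, 14 lost the call (Bid and Bbc3 as given above, and Bcl2l1 as given above and at a threshold of 0.05), 1 gained it (Mcl1) and 4 changed sign, all in members without a call. Those were Bcl2l11 without WT clone 28 and Bad with upper-quartile scaling (0.0041 on the log2 scale), with the regional shift removed (0.056) and without R98S clone 11. With clones left out, Bcl2l11 ranged from -0.39 to 0.018 and Bad from -0.11 to 0.0093. The log2 ratios that changed sign, both without WT clone 36, were those of Mcl1 to Bcl2l11 (range with 1 clone left out -0.48 to 0.11) and of Bcl2 to Bcl2l11 (-0.44 to 0.19). Of 4 members called, 2 were called with the regional shift removed, and 2 to 4 with 1 clone left out, the 2 being without WT clone 28, WT clone 29, R98S clone 11 or R98S clone 35. The 21 pathway genes became 13 without the trend, 11 at an adjusted p of 0.05, and 9 to 27 with 1 clone left out, with 9 without WT clone 28, 11 without WT clone 29 or R98S clone 11 and 12 without R98S clone 35. The 2755 genes called overall became 1722 at 0.05 and 1327 to 3219 with 1 clone left out (1327 without WT clone 28, 1464 without WT clone 29 and 1578 without R98S clone 11). Of the genes called overall 45.05% were higher in R98S cells, and 52.12% with upper-quartile scaling. Without both WT clone 36 and R98S clone 13 these counts were 5, 30 and 3621. The difference between the pro-survival and pro-death medians ranged from -0.48 to -0.02 with 1 clone left out, the latter without WT clone 36. Leaving out a clone reduces the residual degrees of freedom. No paired analysis was possible because the WT and R98S clones share no number. With 3 clones per genotype an exact test cannot pass 0.05.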

Other observations

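Several genes that meet the BCL2 family at the mitochondrial surface or in its turnover did not pass the test although their genotypes did not overlap. Of all tested genes 37.3% did not overlap, so this trait does not set them apart. Vdac3, March5 and Birc2 also did not overlap and were not called. Huwe1, a ubiquitin ligase acting on MCL1, was at 19109 to 20142 normalized counts in WT and at 13936 to 18536 in R98S clones (log2 fold change -0.30, limma adjusted p = 0.148). Ppp3ca, a calcineurin subunit that can dephosphorylate BAD, gave -0.34 (limma adjusted p = 0.109), and Rps6kb1, a kinase that phosphorylates BAD, gave 0.32 (limma adjusted p = 0.110). Becn1, whose product binds BCL2 through a BH3 helix, was at 1852 to 1908 in WT and at 1938 to 2635 in R98S clones (0.24, limma adjusted p = 0.237). Endog, a mitochondrial nuclease gene, had no read in any WT clone and was at 4.69, 7.14 and 9.25 normalized counts in R98S clones 11, 13 and 35, and its mean lay below the expression filter.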
